A study of Arabidopsis thaliana with 18 samples.

Results

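The comparison set whole embryos of Arabidopsis thaliana at the 16-cell stage against embryos at the 8-cell stage, with 3 libraries of each, out of 18 libraries over 6 stages. Genes entered it by 1 rule, a level of 1 TPM or more in at least 3 of these 6 libraries (TPM are a transcript's share of its library, corrected for length, on a scale that sums to 1000000), and 15845 of the 27564 genes in the deposited table met it. The gene just inside the rule was AT4G08250, whose level in the library that decides the rule was 1.0005 TPM, and the gene just outside was AT1G22080, at 0.9996 TPM. Per the labels, the 16-cell group and the 8-cell group were both embryos taken by hand from plants kept at 22 °C (a day of 16 h and a night of 8 h), and these labels differ in cell stage alone. The labels name no accession, genotype or treatment for either group, and the number of embryos in a library is not given in the sources used here. Messenger RNA was captured on oligo-dT beads and the cDNA was amplified with a kit for very small inputs. Nothing says that the libraries of a stage came from separate plants, so p-values measure the spread between these libraries, which may be technical. The other 4 stages (2/4-cell, 32-cell, globular and heart) served to estimate the spread and to show the later course of a gene.

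The division that follows the 8-cell stage runs parallel to the surface of the proembryo and separates an outer layer, the protoderm, from the inner cells. The protoderm is the founder of the epidermis and depends on ATML1 and PDF2, transcription factors of the HD-ZIP IV family (a homeodomain joined to a leucine zipper), while the inner cells found the vascular and ground tissues under control of the auxin response factor MP. A suspensor joins the embryo to the mother plant, and its uppermost cell later becomes the hypophysis, from which part of the root tip forms. The libraries were made from whole embryos, so a level is a mean over all these cells, and fewer cells of a type and less RNA per cell cannot be told apart.

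The libraries were alike in breadth, with 15381 to 16024 genes at 1 TPM or more and 5.76% to 8.36% of all TPM in the 10 highest genes. Read depth is unknown, because TPM are shares of a fixed total. Pearson's r over genes was 0.912 to 0.941 between 16-cell libraries and 0.941 to 0.950 between 8-cell libraries, and 0.896 to 0.938 across the stages. The library labelled 16-cell replicate 3 stood apart. On the first principal component of all 18 libraries (48.8% of the variance) it lay at -52.8, among the 8-cell libraries (-69.7 to -47.2), whereas replicates 1 and 2 of that stage were at -20 and -11.4. Counts of calls are therefore also given without it where they differ: they did in 5 of the 21 gene lists described below, and in 16 the counts were equal. Embryo markers were high in all 6 libraries: LEC1, a master regulator of embryo identity, had 455, 274 and 203 TPM in the 16-cell libraries and 452, 352 and 504 TPM in the 8-cell libraries. Markers of the seed coat, 14 genes of which 1 was at 0 in all 6 libraries, summed to 29.7, 34.8 and 48.0 TPM at 16-cell, against 49.1, 74.7 and 106 TPM at 8-cell. Markers of the endosperm, 14 genes of which 4 were at 0 throughout, summed to 8.83, 14.9 and 15.9 TPM at 16-cell and 3.11, 6.93 and 15.73 TPM at 8-cell. Seed coat sums were therefore lower in every 16-cell library, and their part in the results below was not tested.

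Limma called 100 genes between the stages at an adjusted p under 0.05, which is 0.631% of those tested. Of them 75 were higher at 16-cell (0.473%) and 25 were lower (0.158%). The rises were 2.05- to 44.2-fold with a median of 4.29-fold, with median levels of 18.7 TPM at 16-cell and 2.78 TPM at 8-cell. The falls were 2.09- to 10.6-fold with a median of 4.00-fold, with median levels of 11.0 TPM at 16-cell and 39.9 TPM at 8-cell. Folds are ratios of TPM + 1 and understate the change of low genes. In all 100 genes the 3 libraries of one stage lay wholly above the 3 of the other, a pattern found in 2156 of the tested genes (13.6%), of which 1021 were higher (6.44%) and 1135 lower (7.16%) at 16-cell. That pattern held without 16-cell replicate 3 for 4396 genes (27.7%). In 16 of the 75 risers all 3 8-cell libraries were under 1 TPM, and in 5 of the 25 fallers all 3 16-cell libraries were. Such genes, 93 and 82 among all those tested, could pass the 1 TPM rule through one stage only, and so had to differ. Among the risers named below they included KAN1, JKD, BRU6, CKX5, CHR38, AT3G13898, AT3G44960, AT3G52075, AT4G35375 and AT4G37810, and among the fallers AT2G07820. The uncalled AS2, CUC1 and AT1G05577 were of the same kind. Across all tested genes the log2 change had a median of -0.03, or 0.09 without 16-cell replicate 3, and 1366 (8.62%) had an unadjusted p under 0.05. At a share of 0.631% called, a list of 100 tested genes would hold less than 1 call, so a list below with 0 calls is not set apart from the background by that count. The 13.6% with separate stages and the 8.62% at an unadjusted p under 0.05 are likewise the background for the lists and genes below.

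The number of calls changed unequally with the library left out, and the stage weights were estimated anew each time. Below, a call is said to depend on a library if it was lost without that library. Without 16-cell replicate 3, 124 genes were called higher (0.783%) and 32 lower (0.202%), and these held 70 of the 75 rises and 19 of the 25 falls. Without 16-cell replicate 2, 5 rises and 0 falls were called, while the direction of all 100 genes was kept and 469 genes were lower at an unadjusted p under 0.05. Replicates 1 and 3, which then remained, were the least alike pair of the 16-cell stage (r = 0.912). Calls were also lost where replicate 2 was not the highest 16-cell library. YUC3 had 15.8, 12.9 and 11.1 TPM in 16-cell replicates 1, 2 and 3 (limma adjusted p = 0.0584 without replicate 2). A lost call therefore does not show that the gene's own value in the omitted library carried it, and the cause was not tested. The fit gave each stage its own precision weight, since the spread within a stage differed between stages (mean SD of log2 levels 0.488 at 16-cell and 0.397 at 8-cell). The weights were 0.34 at 2/4-cell, 0.78 at 8-cell and 0.49 at 16-cell, against 1.6 at 32-cell, 2.2 at globular and 2.1 at heart. Equal weights then understate the spread of the early stages, so a call made with equal weights but not with stage weights is less strict. With equal weights limma called 172 genes higher and 146 lower, and with library weights 224 higher and 137 lower, each including all 100 genes. Fitted on only the 6 libraries compared, at equal weights, 48 of the 75 rises and 20 of the 25 falls were called again. Among those not called then were KAN1, LHY, AIL6 and TMO6 (limma adjusted p = 0.114, 0.0982, 0.0662 and 0.0617). Of the 75 rises, the 16-cell library nearest to the 8-cell level was replicate 1 in 44 genes, replicate 3 in 27 and replicate 2 in 4. The 5 genes that stayed called under every omission were AT3G15680, CUC2, AT3G44960, AT4G35375 and AT4G22235, named here after their values were seen. Without 16-cell replicate 2 the limma adjusted p was 0.00192 for AT3G15680. It was 0.0497 for each of CUC2, AT3G44960, AT4G35375 and AT4G22235, barely under the threshold. Of the 5 genes, AT3G44960 and AT4G35375 were under 1 TPM in every 8-cell library, so they passed the 1 TPM rule through 16-cell alone and had to differ.

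**Figure D1:**
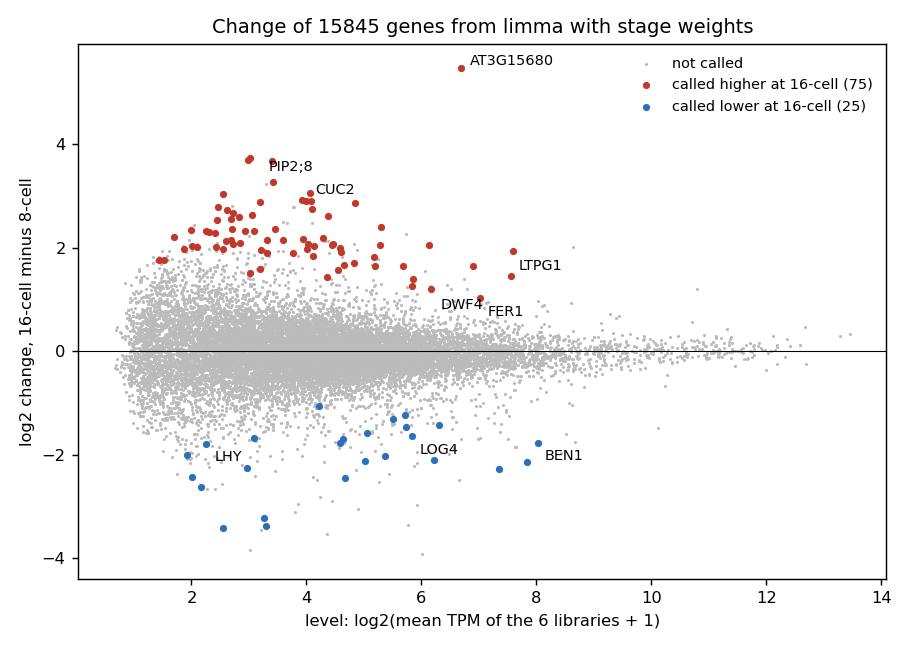
Log2 change (16-cell minus 8-cell, vertical axis) against level (log2 of the mean TPM of the 6 libraries plus 1, horizontal axis) of 15845 genes; red and blue points are the 75 genes called higher and the 25 called lower at 16-cell. The largest change was that of AT3G15680, and few genes above a log2 level of 8 were called.

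The largest rise was that of AT3G15680, a gene annotated as a zinc finger protein of the Ran BP2/NZF type, which has no symbol in the reference table and was singled out after its values were seen. It had 50.8, 395 and 159.9 TPM in the 16-cell libraries, given here and below in the order of replicates 1, 2 and 3, against 2.20, 2.57 and 2.35 TPM in the 8-cell libraries. The 8-cell libraries were nearly equal, and the lowest 16-cell library stood far above them. The gene rose 44.2-fold (log2 change 5.46 ± 0.53 SE, limma adjusted p = 3.5e-05), and was still at 169.9 ± 68.9 TPM at the 32-cell stage and 75.1 ± 11.99 TPM at heart (SD, n = 3). Other genes without a symbol, also picked after their values were seen, rose as well. AT3G52075, an uncharacterized gene, was at 0 in each 8-cell library and had 25.7, 8.21 and 7.72 TPM in the 16-cell libraries, after 34.5 ± 21.3 TPM at the 2/4-cell stage (SD, n = 3). AT3G44960, annotated as a shugoshin, a protector of chromosome cohesion, had 9.90, 17.2 and 28.9 TPM at 16-cell and 0.248, 0.773 and 0.271 TPM at 8-cell. AT4G22235, annotated as a defensin-like protein, a small secreted type, had 37.4, 23.2 and 25.6 TPM at 16-cell and 4.60, 2.96 and 2.73 TPM at 8-cell. Without 16-cell replicate 2 the call of AT3G52075 was lost (limma adjusted p = 0.311). The call of AT3G52075 further depended on 16-cell library 1 and on 8-cell libraries 1, 2 and 3 (adjusted p as high as 0.149 on omission).

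Among genes with a symbol and a mean of 10 TPM or more, the 12 largest rises were those of a water channel, an RNA-binding protein, organ boundary and auxin genes, and several enzymes. PIP2;8 (AT2G16850), an aquaporin of the plasma membrane, had 5.37, 40.8 and 10.1 TPM in 16-cell libraries, against 0.238, 1.08 and 0.293 TPM in 8-cell libraries. Its 16-cell libraries differed widely among themselves, and none overlapped the 8-cell range. MCT1 (AT1G37140), an RNA-binding protein related to the meiosis regulator MEI2 of fission yeast, had 31.7, 42.2 and 12.9 TPM at 16-cell and 0.837, 2.60 and 4.11 TPM at 8-cell. The 12 rises ran down from 9.60-fold for PIP2;8 and 8.35-fold for MCT1 to 4.50-fold for MT2A (AT3G09390), a metal-binding metallothionein. ROPGEF3 (AT4G00460), an activator of the ROP GTPases that mark domains of the plasma membrane, stood out by its even 16-cell libraries: 33.6, 31.6 and 36.8 TPM, against 5.23, 1.67 and 10.2 TPM at 8-cell. Its mean was highest at 16-cell and was 17.7 ± 0.709 TPM at 32-cell and 2.60 ± 1.53 TPM at heart (SD, n = 3). MLP28 (AT1G70830), a major latex protein-like gene, SCPL27 (AT3G07990), a serine carboxypeptidase-like gene, and NADP-ME3 (AT5G25880), a malic enzyme, rose 7.26-, 5.13- and 4.54-fold. The remaining rises, CUC2, NPY4, YUC3, TMO6 and PIN4, are described with their groups. When 16-cell replicate 2 was left out, all 7 of these calls were lost (limma adjusted p = 0.105 to 0.67). The call of MT2A further depended on 16-cell libraries 1 and 3 and on 8-cell libraries 1, 2 and 3 (adjusted p as high as 0.164 on omission). The call of ROPGEF3 further depended on 16-cell library 1 and on 8-cell libraries 1 and 2 (adjusted p as high as 0.162 on omission). The call of MLP28 further depended on 16-cell library 1 and on 8-cell libraries 2 and 3 (adjusted p as high as 0.113 on omission). The call of SCPL27 further depended on 16-cell library 3 and on 8-cell libraries 2 and 3 (adjusted p as high as 0.188 on omission). The call of NADP-ME3 further depended on 16-cell library 1 and on 8-cell library 2 (adjusted p as high as 0.14 on omission).

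**Figure D2:**
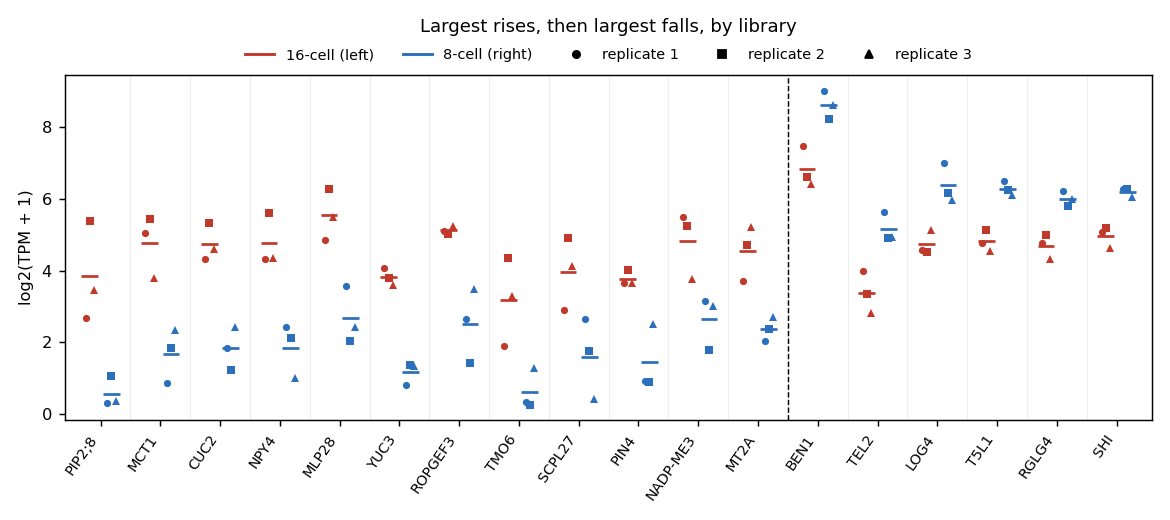
Level, as log2(TPM + 1), of the 12 largest rises (left of the dashed line) and the 6 falls that met the naming rule; red symbols on the left of each pair are the 3 16-cell libraries, blue symbols on the right the 3 8-cell libraries, circles, squares and triangles are replicates 1, 2 and 3, and bars are means. No gene has overlapping stages, and for PIP2;8 replicate 2 (40.8 TPM) is well above replicates 1 and 3.

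Only 6 falling genes met the same rule, and hormone genes made up several of them. BEN1 (AT2G45400), an enzyme that lowers the level of active brassinosteroids, was the most abundant: it had 176, 96.7 and 83.5 TPM in 16-cell libraries, against 509, 298 and 387 TPM in 8-cell libraries. The highest 16-cell library stayed well under the lowest 8-cell one. BEN1 fell 3.43-fold (log2 change -1.78 ± 0.33 SE, limma adjusted p = 0.0125). Its 8-cell mean stood above 65.4 ± 10.6 TPM at 2/4-cell, 119 ± 50.2 TPM at 16-cell and 61.9 ± 22.3 TPM at 32-cell (SD, n = 3). TEL2 (AT1G67770), an RNA-binding protein of the terminal EAR1-like type, had 14.9, 9.17 and 6.10 TPM at 16-cell and 48.8, 29.1 and 29.8 TPM at 8-cell. RGLG4 (AT1G79380), a ubiquitin ligase, had 26.4, 30.5 and 18.9 TPM at 16-cell and 73.6, 54.7 and 62.2 TPM at 8-cell. SHI (AT5G66350), a zinc finger factor whose family promotes auxin synthesis, had 32.6, 35.1 and 23.51 TPM at 16-cell and 75.5, 76.0 and 64.7 TPM at 8-cell, a fall of 2.35-fold. In each of these genes the stages were separate and the 16-cell level was below that of 8-cell. LOG4 and T5L1, the remaining falls, belong to the vascular group below. LHY (AT1G01060), a clock gene that peaks around dawn, was named after its values were seen: it had 0.59, 1.03 and 1.75 TPM at 16-cell and 5.17, 5.22 and 8.74 TPM at 8-cell, before 72.4 ± 18.8 TPM at heart. Time of day of collection is not given in the sources used here. With 16-cell replicate 2 omitted, all 5 of these calls were lost (limma adjusted p = 0.326 to 0.521). The call of BEN1 further depended on 8-cell libraries 1 and 3 (adjusted p as high as 0.0528 on omission). TEL2 and RGLG4 further depended on 16-cell libraries 1 and 3 and on 8-cell libraries 1, 2 and 3 (adjusted p as high as 0.175 for TEL2 and 0.173 for RGLG4 on omission). SHI and LHY further depended on 16-cell library 1 and on 8-cell libraries 1, 2 and 3 (adjusted p as high as 0.0972 for SHI and 0.177 for LHY on omission).

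The HD-ZIP IV genes, which hold the regulators of protoderm identity, showed no call in either direction. Of 16 genes 9 were tested, and their median log2 change was -0.27, against -0.03 over all tested genes. ATML1 (AT4G21750), which is needed for epidermal identity, had 97.8, 57.3 and 34.9 TPM in 16-cell libraries, against 99.9, 79.9 and 94.2 TPM in 8-cell libraries. PDF2 (AT4G04890), its closest partner, had 128, 82.6 and 55.6 TPM at 16-cell and 78.1, 53.2 and 59.8 TPM at 8-cell. Both overlapped between the stages, and in both 16-cell replicate 3 was the lowest of its stage (limma adjusted p = 0.511 for ATML1 and 0.807 for PDF2). HDG5 (AT5G46880) and HDG12 (AT1G17920), further members of the family, had levels close to those of ATML1. HDG5 had 99.2, 96.8 and 46.0 TPM at 16-cell and 94.3, 62.0 and 108 TPM at 8-cell, and HDG12 had 94.5, 49.8 and 24.6 TPM at 16-cell and 88.3, 65.8 and 77.3 TPM at 8-cell. HDG11 (AT1G73360), known for its role in leaf hairs, was lower, with 29.8, 20.1 and 9.28 TPM at 16-cell and 15.72, 16.2 and 17.3 TPM at 8-cell. The summed level of the family was 462, 315 and 175 TPM at 16-cell, against 396, 286 and 365 TPM at 8-cell, so it was highest in 16-cell replicate 1 and lowest in 16-cell replicate 3. With limma 1 member had an unadjusted p under 0.05, and 0 were called with equal weights, with library weights, or without 16-cell replicate 3, where the median was -0.13. A miss of the threshold does not show that the levels were the same: the log2 change of ATML1 was -0.64 ± 0.28 (SE).

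Genes for the surface of the protoderm held one rise and many genes without a call. Among 16 tested of 19 protoderm signalling and surface genes, 1 was called higher and 0 lower, against 0.473% and 0.158% of all tested genes. The list median was -0.16, or 0.16 without 16-cell replicate 3. The riser was LTPG1 (AT1G27950), a membrane-anchored lipid transfer protein that exports cuticular wax, with 310.5, 249 and 268 TPM in 16-cell libraries, against 105, 83.4 and 113 TPM in 8-cell libraries. Its 16-cell libraries were close together, and all lay far above the 8-cell libraries. LTPG1 rose 2.75-fold (log2 change 1.46 ± 0.21 SE, limma adjusted p = 0.00169) and its mean was 713 ± 74.3 TPM at 32-cell and 1236 ± 128 TPM at the globular stage (SD, n = 3). PDF1 (AT2G42840), a protein of the outer layer and a target of ATML1, was already very abundant: 3017, 1771 and 1258 TPM at 16-cell and 1451, 869 and 1670.0 TPM at 8-cell, with overlap and no call (limma adjusted p = 0.664). The receptor kinases ACR4, GSO1 and GSO2 had overlapping levels. ACR4 (AT3G59420), required for a continuous epidermis, had 6.01, 7.75 and 4.49 TPM at 16-cell and 6.21, 6.19 and 3.98 TPM at 8-cell. GSO1 (AT4G20140) and GSO2 (AT5G44700), receptors that oversee cuticle integrity, had 37.9, 39.9 and 13.1 TPM and 24.9, 12.6 and 7.75 TPM at 16-cell, against 24.9, 14.3 and 20.5 TPM and 23.4, 22.2 and 31.2 TPM at 8-cell. AT5G01075, which encodes TWS1, the precursor of the peptide that these receptors perceive, had 35.8, 33.6 and 45.2 TPM at 16-cell and 18.6, 17.3 and 17.5 TPM at 8-cell. Its stages did not overlap, but the call was missed (limma adjusted p = 0.273). RPK1 (AT1G69270) and ALE2 (AT2G20300), receptor kinases of the list picked after their values were seen, also had separate stages without a call (limma adjusted p = 0.881 and 0.747). RPK1 had 20.7, 15.1 and 14.4 TPM at 16-cell and 13.7, 10.8 and 12.7 TPM at 8-cell, and ALE2 had 14.7, 15.5 and 9.38 TPM at 16-cell and 20.9, 16.4 and 16.0 TPM at 8-cell. LTP1 (AT2G38540), a lipid transfer protein, likewise had separate stages and was lower at 16-cell, 2.92, 6.50 and 5.67 TPM at 16-cell and 15.9, 22.3 and 32.1 TPM at 8-cell, without a call (adjusted p = 0.437). Without 16-cell replicate 2 the call of LTPG1 was lost (limma adjusted p = 0.0584).

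The enzymes and transporters of cutin and wax gave 0 calls among 22 tested of 27, with a median log2 change of 0.23. Those with the highest levels were already expressed at 8-cell. PAS2 (AT5G10480), a dehydratase of fatty acid elongation, had 126, 101 and 86.8 TPM at 16-cell and 96.1, 101 and 110.4 TPM at 8-cell. FDH (AT2G26250), an elongase named for fused organs in its mutant, had 116, 69.1 and 54.1 TPM at 16-cell and 78.8, 57.3 and 87.8 TPM at 8-cell. ABCG11 (AT1G17840), a transporter of cutin and wax, had 110.0, 87.0 and 42.4 TPM at 16-cell and 82.5, 52.4 and 71.3 TPM at 8-cell, and the stages overlapped in all these genes. DCR (AT5G23940), an acyltransferase of cutin assembly picked after its values were seen, had 68.7, 47.8 and 24.7 TPM at 16-cell and 16.8, 18.18 and 23.1 TPM at 8-cell. Its stages were separate by a narrow margin set by 16-cell replicate 3; the limma adjusted p was 0.215 with that library and 0.0257 without it. CER6 (AT1G68530), an elongase of wax, also picked afterwards, had 3.21, 6.90 and 3.73 TPM at 16-cell and 0.47, 0.478 and 1.22 TPM at 8-cell (limma adjusted p = 0.104). Of the list 4 members had an unadjusted p under 0.05 in limma, and DCR alone was called without 16-cell replicate 3; 0 were called with equal weights and 2, DCR and CER6, with library weights. The summed levels of the list overlapped, at 872, 757 and 495 TPM at 16-cell and 632, 505 and 703 TPM at 8-cell.

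Several called genes outside the lists act at the surface or the cell wall, and they were collected after their values were seen. AT1G71691 and AT5G22810 are annotated as GDSL lipases, a family that includes enzymes of cutin polymerization. AT1G71691 had 326, 336 and 239.9 TPM in 16-cell libraries, against 68.2, 56.7 and 119 TPM in 8-cell libraries, a rise of 3.81-fold. AT5G22810 had 70.5, 95.5 and 32.7 TPM at 16-cell and 11.4, 11.3 and 9.50 TPM at 8-cell, and its mean was 1120.3 ± 89.0 TPM at the globular stage (SD, n = 3). AT5G01870, annotated as a lipid transfer protein, had 51.3, 55.6 and 76.9 TPM at 16-cell and 19.996, 11.5 and 11.3 TPM at 8-cell. XTH4 (AT2G06850) and XTH9 (AT4G03210), which cut and rejoin xyloglucan in the wall, rose 4.17- and 3.14-fold, and the cellulase gene CEL2 (AT1G02800) rose 3.72-fold. XTH9 was the most abundant of these wall genes, with 254, 189 and 100.3 TPM at 16-cell and 51.4, 42.4 and 68.5 TPM at 8-cell, and its lowest 16-cell library was replicate 3. Also among the called genes outside the lists, SCRM2 (AT1G12860), a transcription factor that acts throughout the stomatal lineage with its partner ICE1, had 5.74, 14.95 and 6.37 TPM at 16-cell and 0.999, 1.70 and 0.724 TPM at 8-cell. AT3G13898 and AT4G37810, both annotated as epidermal patterning factor-like peptides, rose 3.38- and 4.08-fold, at low levels. Both were under 1 TPM in every 8-cell library, so they met the 1 TPM rule through 16-cell alone and had to differ. In each of the genes named in this paragraph the lowest 16-cell library exceeded the highest 8-cell library, a separation that all 100 called genes had. When 16-cell replicate 2 was left out, all 9 of these calls were lost (limma adjusted p = 0.0681 to 0.578). The call of AT5G01870 further depended on 8-cell library 3 (adjusted p of 0.073 on omission). The call of XTH4 further depended on 16-cell library 1 (adjusted p of 0.066 on omission). The call of XTH9 further depended on 16-cell library 1 and on 8-cell library 2 (adjusted p as high as 0.127 on omission). CEL2 and AT3G13898 further depended on 16-cell library 1 and on 8-cell libraries 1, 2 and 3 (adjusted p as high as 0.14 for CEL2 and 0.22 for AT3G13898 on omission). The call of AT4G37810 further depended on 8-cell libraries 1 and 3 (adjusted p as high as 0.102 on omission).

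**Figure D3:**
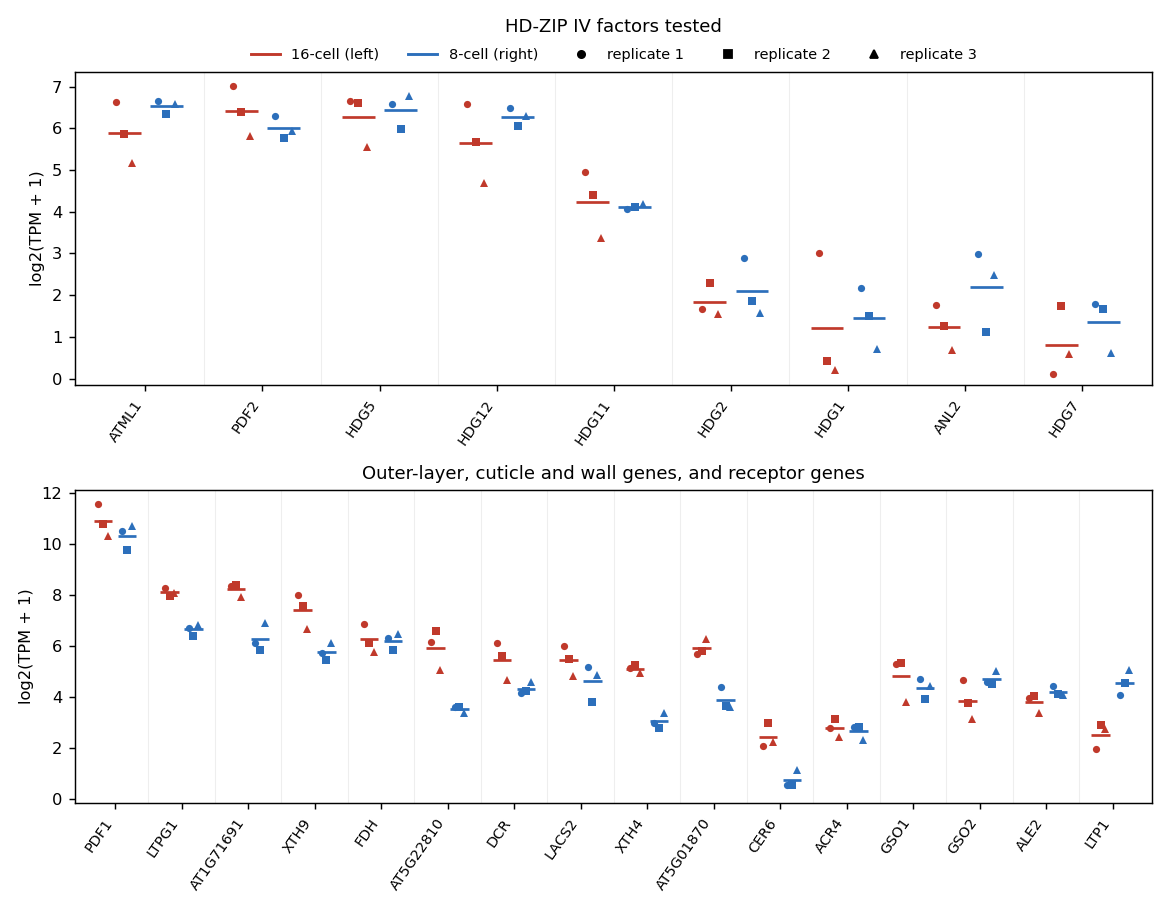
Level, as log2(TPM + 1), of the 9 tested HD-ZIP IV genes (top) and of outer-layer, cuticle, wall and receptor genes (bottom), with 16-cell libraries in red on the left and 8-cell libraries in blue on the right; symbols are replicates and bars means. The HD-ZIP IV stages overlap, with 16-cell replicate 3 (triangles) low in ATML1, HDG5, HDG12 and HDG11, while LTPG1, AT1G71691, XTH9, AT5G22810, XTH4 and AT5G01870 are separate.

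Regulators of the inner cells and the future vascular tissue held calls in both directions. Of 23 tested of 30, 1 was called higher and 2 lower, against 0.473% and 0.158% of all tested genes, and the list median was -0.23. Without 16-cell replicate 3 the counts were 0 and 1 (the fall of LOG4) and the median was 0.08. TMO6 (AT5G60200), a Dof factor activated by MP, had 2.77, 19.3 and 8.84 TPM in 16-cell libraries, against 0.267, 0.208 and 1.45 TPM in 8-cell libraries. Its 16-cell libraries spread over a wide range and its lowest was only just above the highest 8-cell library. T5L1 (AT1G68810), a partner of LHW in the bHLH complex that drives vascular divisions, had 26.4, 33.8 and 22.2 TPM at 16-cell and 88.7, 75.1 and 67.7 TPM at 8-cell. LOG4 (AT3G53450), a cytokinin-activating enzyme that this complex switches on, had 22.6, 21.99 and 33.8 TPM at 16-cell and 127, 70.1 and 61.1 TPM at 8-cell. T5L1 and LOG4 thus fell 2.77- and 3.11-fold, with stages well apart (limma adjusted p = 0.0467 and 0.0295). TMO5 (AT3G25710), the sister of T5L1, had overlapping levels of 23.62, 49.2 and 31.5 TPM at 16-cell and 59.2, 41.6 and 47.1 TPM at 8-cell. MP (AT1G19850) itself had 184, 245 and 76.1 TPM at 16-cell and 109.8, 79.2 and 128 TPM at 8-cell, with 16-cell replicate 3 below all other libraries and no call (adjusted p = 0.779). TMO3, SHR, ATHB8 and ZPR3 had separate stages without a call, where 13.6% of all tested genes had separate stages. As another target of MP, TMO3 (AT4G23750) had 38.0, 57.8 and 43.7 TPM at 16-cell and 21.6, 15.4 and 27.3 TPM at 8-cell. SHR (AT4G37650), which leaves the vascular cells to pattern the ground tissue, had 7.12, 17.7 and 5.07 TPM at 16-cell and 3.58, 1.81 and 3.17 TPM at 8-cell. ATHB8 (AT4G32880), an early marker of vascular fate, had 4.66, 3.08 and 2.33 TPM at 16-cell and 14.9, 11.4 and 11.6 TPM at 8-cell, and ZPR3 (AT3G52770), a small inhibitor of such factors, had 74.1, 77.7 and 92.3 TPM at 16-cell and 134, 102 and 108 TPM at 8-cell. Of these SHR was called with library weights and none with equal weights. Their adjusted p were 0.22 for TMO3, 0.272 for SHR, 0.323 for ATHB8 and 0.84 for ZPR3 (limma). With 16-cell replicate 2 omitted, the calls of TMO6, T5L1 and LOG4 were lost (limma adjusted p = 0.405 to 0.693). The call of TMO6 further depended on 16-cell library 3 and on 8-cell libraries 1, 2 and 3 (adjusted p as high as 0.146 on omission). The call of T5L1 further depended on 16-cell libraries 1 and 3 and on 8-cell libraries 1, 2 and 3 (adjusted p as high as 0.17 on omission). The call of LOG4 further depended on 16-cell library 1 and on 8-cell libraries 1 and 2 (adjusted p as high as 0.147 on omission).

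Regulators of the shoot apex, organ boundaries and leaf polarity held some of the rises with the smallest adjusted p. Of 8 tested of 22 shoot and boundary genes 2 were called higher and 0 lower (median 0.35), and of 8 tested of 12 polarity genes 2 were called higher and 0 lower (median 1.12). Among all tested genes 0.473% were called higher and 0.158% lower. The polarity genes called higher were 3 without 16-cell replicate 3, with ARF3 added. CUC2 (AT5G53950), which marks the boundary between organs, had 19.0, 38.9 and 23.0 TPM in 16-cell libraries, against 2.62, 1.35 and 4.36 TPM in 8-cell libraries. It rose 7.49-fold (log2 change 2.90 ± 0.37 SE, limma adjusted p = 8.0e-04), and stood at 97.4 ± 24.9 TPM at 32-cell (SD, n = 3). AIL6 (AT5G10510), a factor of the PLETHORA kind that supports organ growth, had 11.9, 36.7 and 9.10 TPM at 16-cell and 4.18, 2.76 and 1.94 TPM at 8-cell. The AIL6 libraries did not overlap, and 16-cell replicate 2 was far above the others. CUC1 (AT3G15170), the partner of CUC2, had 1.81, 5.06 and 1.27 TPM at 16-cell and 0.819, 0.387 and 0.184 TPM at 8-cell, low but separate levels without a call (adjusted p = 0.2). Having passed the 1 TPM rule through 16-cell alone, CUC1 had to be separate. DRN (AT1G12980), a factor of early embryo patterning, was apart in the other direction, with 63.3, 30.8 and 50.1 TPM at 16-cell and 177, 107 and 121 TPM at 8-cell, and was not called (limma adjusted p = 0.221). DRN was called with equal and with library weights, and CUC1 with library weights. STM, WUS and CLV3, regulators of the shoot meristem, did not meet the 1 TPM rule.

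The KANADI genes specify the lower, abaxial side of leaves and the outside of stems, and 3 of them were at higher TPM in every 16-cell library. The same held for 6.44% of all tested genes. KAN2 (AT1G32240) had 7.09, 12.05 and 9.83 TPM in 16-cell libraries, against 0.184, 0.475 and 1.22 TPM in 8-cell libraries. KAN1 (AT5G16560) had 4.30, 3.23 and 2.05 TPM at 16-cell and 0.237, 0.176 and 0.195 TPM at 8-cell. KAN2 and KAN1 rose 6.66- and 3.40-fold (limma adjusted p = 0.00112 and 0.0176), each from levels near or below 1 TPM at 8-cell, and the mean of KAN2 was 39.7 ± 5.84 TPM at heart (SD, n = 3). KAN1 was under 1 TPM in every 8-cell library, so it met the 1 TPM rule through 16-cell alone and had to be higher there. KAN4 (AT5G42630), known for its role in the ovule, had 5.57, 7.98 and 5.65 TPM at 16-cell and 1.52, 1.25 and 2.46 TPM at 8-cell, without overlap and without a call (adjusted p = 0.17). AS2 (AT1G65620), which works with AS1 on the upper side of leaves, had 2.05, 5.28 and 2.76 TPM at 16-cell and 0.47, 0.391 and 0.309 TPM at 8-cell, also uncalled (limma adjusted p = 0.0883). Like KAN1, AS2 could meet the 1 TPM rule through 16-cell alone and had to be higher there. ARF3 (AT2G33860), an auxin response factor with which KANADI proteins act, had 98.4, 77.9 and 44.7 TPM at 16-cell and 40.7, 34.6 and 45.0 TPM at 8-cell. Only 16-cell replicate 3 of ARF3 lay within the 8-cell range, and the adjusted p was 0.201 with it and 0.0131 without it. FIL (AT2G45190), a YABBY factor of the abaxial side, ran the other way, with 6.45, 1.63 and 2.02 TPM at 16-cell and 16.3, 9.33 and 6.59 TPM at 8-cell, narrowly apart and uncalled. With equal weights AS2 was called too, and with library weights AS2, KAN4 and ARF3. Without 16-cell replicate 2 the calls of AIL6, KAN1 and KAN2 were lost (limma adjusted p = 0.0584 to 0.576). The call of AIL6 further depended on 16-cell library 1 and on 8-cell libraries 2 and 3 (adjusted p as high as 0.113 on omission). The call of KAN1 further depended on 16-cell library 1 and on 8-cell library 3 (adjusted p as high as 0.121 on omission).

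**Figure D4:**
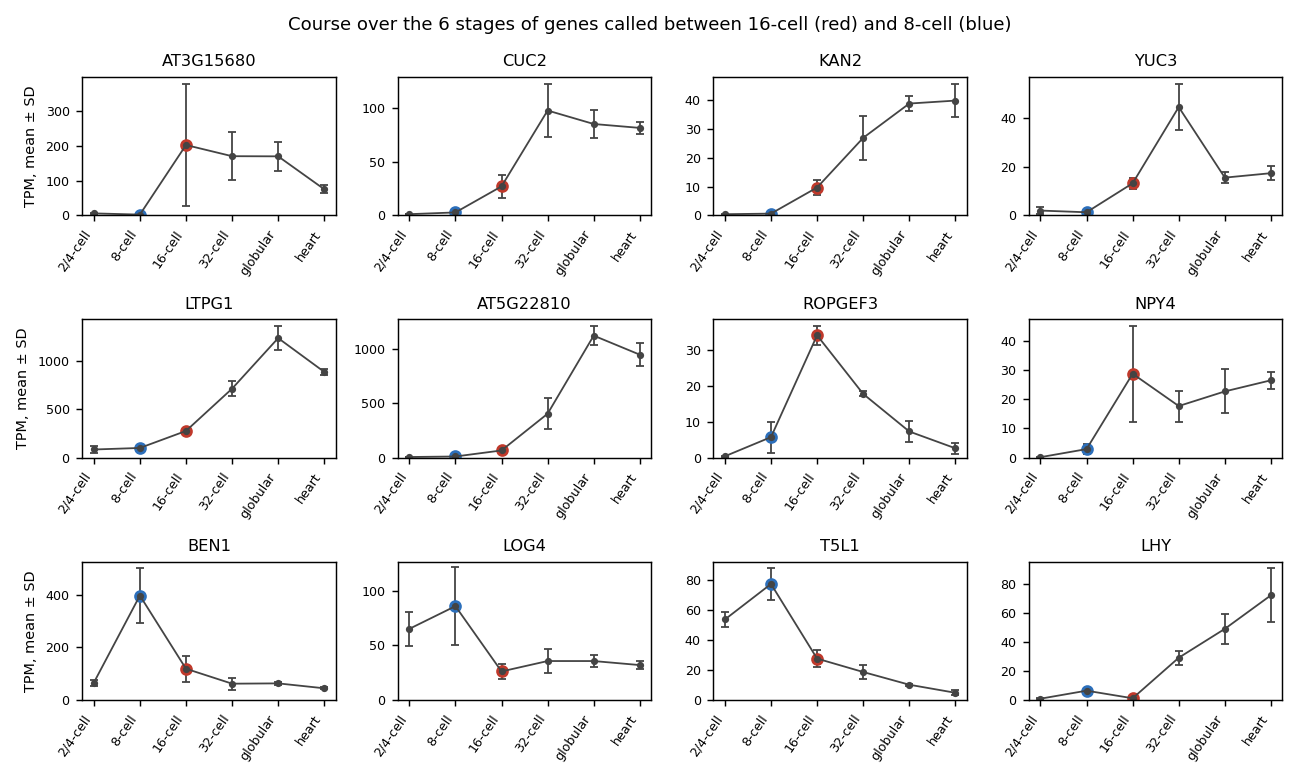
Mean TPM over the 6 stages, in their order, of 12 genes called between 16-cell (red point) and 8-cell (blue point); bars are SD over 3 libraries and each panel has its own axis. CUC2, YUC3 and LTPG1 had higher means at 32-cell than at 16-cell, ROPGEF3 had its highest mean at 16-cell, and BEN1 had its highest mean at 8-cell.

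Regulators of the suspensor, hypophysis and root gave 2 calls, both higher, among 17 tested of 20 (median -0.28), where 0.473% of all tested genes were called higher. JKD (AT5G03150), a zinc finger factor of the ground tissue that works with SHR and SCR, had 4.54, 5.70 and 2.88 TPM in 16-cell libraries, against 0.178, 0.138 and 0.0878 TPM in 8-cell libraries. All 8-cell libraries of JKD were close to 0, so it met the 1 TPM rule through 16-cell alone and had to be higher there. WIP4 (AT3G20880), one of the factors that set up the root stem cells, had 6.90, 14.03 and 8.16 TPM at 16-cell and 1.40, 0.729 and 2.49 TPM at 8-cell. JKD and WIP4 rose 4.63- and 4.22-fold (limma adjusted p = 0.0227 and 0.0284). NTT (AT3G57670), a relative of WIP4, overlapped, with 7.65, 4.21 and 5.53 TPM at 16-cell and 1.97, 1.83 and 6.60 TPM at 8-cell. The WOX homeodomain genes that distinguish the apical from the basal lineage were not called. WOX2 (AT5G59340), the apical member, had 101, 64.2 and 75.0 TPM at 16-cell and 194, 146 and 159 TPM at 8-cell, with separate stages but no call (limma adjusted p = 0.0906). WOX2 was called lower with equal and with library weights. WOX8 (AT5G45980), the basal member, had 30.8, 30.9 and 40.7 TPM at 16-cell and 31.9, 29.8 and 73.1 TPM at 8-cell, and WOX9 (AT2G33880) had 121, 89.5 and 59.1 TPM at 16-cell and 73.7, 85.4 and 159.6 TPM at 8-cell. Both overlapped, and 8-cell replicate 3 held the highest value of each. PLT1 (AT3G20840), a root stem cell regulator, had 115, 151 and 76.5 TPM at 16-cell and 65.5, 72.4 and 95.5 TPM at 8-cell, again with overlap. AGL12 (AT1G71692), a MADS-box gene of the root named after its values were seen, rose 3.72-fold, with 10.5, 20.01 and 13.4 TPM at 16-cell and 3.55, 5.12 and 1.43 TPM at 8-cell. When 16-cell replicate 2 was left out, the calls of JKD, WIP4 and AGL12 were lost (limma adjusted p = 0.451 to 0.576). The call of JKD further depended on 16-cell library 1 and on 8-cell libraries 1, 2 and 3 (adjusted p as high as 0.106 on omission). The call of WIP4 further depended on 16-cell library 1 and on 8-cell libraries 1 and 2 (adjusted p as high as 0.0798 on omission). The call of AGL12 further depended on 8-cell library 3 (adjusted p of 0.0793 on omission).

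Among the genes of auxin synthesis and transport YUC3, PIN4 and NPY4 rose. Of 21 tested of 30 such genes 3 were called higher and 0 lower (median 0.24), against 0.473% and 0.158% of all tested genes. YUC3 (AT1G04610), a flavin monooxygenase of the last step of auxin synthesis, had 15.8, 12.9 and 11.1 TPM in 16-cell libraries, against 0.764, 1.61 and 1.53 TPM in 8-cell libraries. Its 16-cell libraries were close together, and it rose 6.23-fold (log2 change 2.64 ± 0.38 SE, limma adjusted p = 0.00138). YUC4 (AT5G11320), a sister enzyme picked after its values were seen, had 37.9, 23.9 and 18.7 TPM at 16-cell and 59.9, 48.4 and 57.5 TPM at 8-cell, lower in each 16-cell library but not called (adjusted p = 0.0744), though it was with equal and with library weights. PIN4 (AT2G01420), an auxin efflux carrier, had 11.5, 15.2 and 11.6 TPM at 16-cell and 0.913, 0.864 and 4.72 TPM at 8-cell. NPY4 (AT2G23050), of a family that acts with the kinase PID in organ formation, had 19.0, 47.6 and 19.5 TPM at 16-cell and 4.44, 3.34 and 1.01 TPM at 8-cell. NPY1 (AT4G31820), its best known relative, was more abundant and overlapped, with 171, 93.8 and 46.8 TPM at 16-cell and 132, 102 and 119.7 TPM at 8-cell. PIN4 and NPY4 rose 5.01- and 7.49-fold, each with separate stages. With 16-cell replicate 2 omitted, the calls of YUC3, PIN4 and NPY4 were lost (limma adjusted p = 0.0584 to 0.401). The call of PIN4 further depended on 16-cell library 1 and on 8-cell libraries 1 and 2 (adjusted p as high as 0.0658 on omission).

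Of 28 tested of 40 auxin response genes 2 were called higher and 0 lower (median -0.13), against 2 and 1 (IAA30) and a median of 0.16 without 16-cell replicate 3. Over all tested genes the shares called were 0.473% and 0.158%, or 0.783% and 0.202% without that library. The 2 list genes called with all libraries were Aux/IAA genes, which encode repressors that auxin destroys and whose transcription auxin often induces. IAA4 (AT5G43700) had 5.49, 15.2 and 9.19 TPM in 16-cell libraries, against 0.662, 0.774 and 1.69 TPM in 8-cell libraries, and IAA26 (AT3G16500) had 13.3, 40.3 and 21.1 TPM at 16-cell and 6.82, 2.43 and 7.08 TPM at 8-cell. They rose 5.14- and 3.92-fold, with 16-cell replicate 2 the highest library of both. IAA1 (AT4G14560), picked after its values were seen, and IAA30 (AT3G62100) were lower in every 16-cell library. IAA1 had 34.2, 37.3 and 49.6 TPM at 16-cell and 156, 141 and 147 TPM at 8-cell, and IAA30 had 25.6, 64.2 and 116 TPM at 16-cell and 234, 169.6 and 166 TPM at 8-cell. Neither was called with all libraries (limma adjusted p = 0.135 and 0.148), and without 16-cell replicate 3 the adjusted p of IAA30 was 0.0244. Equal weights and library weights called both lower. BRU6 (AT4G37390), an auxin-responsive gene of the GH3 family, whose enzymes attach amino acids to hormones, also rose, and was named after its values were seen: it had 6.28, 10.2 and 11.99 TPM at 16-cell and 0.151, 0.295 and 0.311 TPM at 8-cell. Without 16-cell replicate 2 the calls of IAA4, IAA26 and BRU6 were lost (limma adjusted p = 0.456 to 0.578). The call of IAA4 further depended on 8-cell libraries 1 and 2 (adjusted p as high as 0.0584 on omission). The call of IAA26 further depended on 8-cell library 2 (adjusted p of 0.0566 on omission). The call of BRU6 further depended on 16-cell libraries 1 and 3 and on 8-cell libraries 1, 2 and 3 (adjusted p as high as 0.145 on omission).

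Among brassinosteroid genes the calls were a synthesis enzyme that rose and an inactivating enzyme that fell, out of 16 tested of 19 (median -0.04). Calls made up 0.631% of all tested genes. DWF4 (AT3G50660), the rate-limiting hydroxylase of brassinosteroid synthesis, had 92.8, 119.9 and 85.9 TPM in 16-cell libraries, against 33.9, 43.0 and 51.0 TPM in 8-cell libraries. It rose 2.31-fold (limma adjusted p = 0.0295), while BEN1 fell 3.43-fold as given above. Neither the kinase BIN2 (AT4G18710), which restrains the pathway, nor its target BZR1 (AT1G75080) was called: BIN2 had 53.8, 34.9 and 20.2 TPM at 16-cell and 40.8, 17.9 and 45.2 TPM at 8-cell, and BZR1 had 33.8, 39.9 and 22.5 TPM at 16-cell and 48.2, 46.1 and 35.1 TPM at 8-cell. Cytokinin signalling gave 0 calls among 16 tested of 21, with a median of 0.50, and 3 members had an unadjusted p under 0.05 in limma. Its most abundant member, ARR4 (AT1G10470), a feedback regulator of the response, had 59.3, 34.4 and 40.8 TPM at 16-cell and 70.1, 40.4 and 58.9 TPM at 8-cell, which overlap. ARR15 (AT1G74890), of the same kind and picked after its values were seen, was lower in each 16-cell library, with 13.6, 7.49 and 6.11 TPM at 16-cell and 34.3, 32.4 and 20.6 TPM at 8-cell, and was called with equal and with library weights only (adjusted p = 0.102 with stage weights). CKX5 (AT1G75450), a cytokinin-degrading oxidase outside the list and named afterwards, rose 4.95-fold, with 2.79, 13.8 and 5.61 TPM at 16-cell and 0.544, 0.238 and 0.607 TPM at 8-cell. LOG4, the gene of cytokinin activation described above, was among the falls. When 16-cell replicate 2 was left out, the calls of DWF4 and CKX5 were lost (limma adjusted p = 0.521 to 0.576). The call of DWF4 further depended on 16-cell library 1 and on 8-cell libraries 1 and 2 (adjusted p as high as 0.126 on omission). The call of CKX5 further depended on 8-cell libraries 2 and 3 (adjusted p as high as 0.0591 on omission).

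Cell division genes gave 0 calls, where 0.631% of all tested genes were called. Of 15 genes of the division plane and cytokinesis, 22 cyclins and CDKs tested of 24, and 23 genes of DNA replication and S-phase histones, limma called 0 in either direction, and 1, 3 and 2 of them had an unadjusted p under 0.05. The last counts stand against 8.62% of all tested genes. Without 16-cell replicate 3 a single cyclin, CYCB2;2 (AT4G35620), was called higher and is named for that (limma adjusted p = 0.0487, against 0.45 with it); it had 91.0, 55.1 and 24.02 TPM at 16-cell and 26.9, 19.3 and 30.5 TPM at 8-cell. The medians were 0.17, 0.08 and -0.23. The cyclin and CDK sum overlapped between the stages, with 2649, 1832 and 1183 TPM at 16-cell and 1869, 1307 and 1720.2 TPM at 8-cell. It was thus lowest in 16-cell replicate 3, which stood apart from its stage, and next lowest in 8-cell replicate 2. KNOLLE (AT1G08560), the syntaxin of the cell plate, had 268, 192 and 95.5 TPM at 16-cell and 123, 77.3 and 159 TPM at 8-cell, with the same library lowest among the 16-cell ones. With equal weights and with library weights 1 gene of the division plane list was called higher, AT1G05577, named after its values were seen. It encodes SOK1, a protein that sits at one corner of provascular cells, and had 1.20, 9.22 and 1.70 TPM at 16-cell and 0, 0.0747 and 0 TPM at 8-cell, with 16-cell replicate 2 highest. SPL genes, the targets of miR156, gave 0 calls among 6 tested of 11 (median 0.23) by limma with stage, equal or library weights, and 0 had an unadjusted p under 0.05.

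Regulators of seed maturation gave 0 calls among 9 tested, and individual members with separate stages pointed both ways. The members with the highest levels, LEC1 (AT1G21970) and AGL15 (AT5G13790), overlapped between the stages; AGL15, a MADS-box factor of embryo competence, had 99.7, 113 and 85.9 TPM at 16-cell and 108, 90.06 and 114 TPM at 8-cell. L1L (AT5G47670), the closest relative of LEC1, had 28.0, 29.5 and 24.4 TPM at 16-cell and 4.46, 8.84 and 1.44 TPM at 8-cell, and FUS3 (AT3G26790), a B3 factor of seed storage, had 18.8, 24.6 and 21.5 TPM at 16-cell and 4.53, 5.18 and 10.6 TPM at 8-cell. LEC2 (AT1G28300), another B3 factor, had 60.8, 49.6 and 28.6 TPM at 16-cell and 114, 89.4 and 75.2 TPM at 8-cell. L1L and FUS3 were higher and LEC2 lower in each 16-cell library, and all missed the threshold (limma adjusted p = 0.0958 for L1L, 0.0906 for FUS3 and 0.0906 for LEC2). All 3 had an unadjusted p under 0.05; equal weights called L1L and LEC2, and library weights L1L and FUS3. L1L and FUS3 were picked after their values were seen.

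Heat shock genes and organelle genes had the lowest medians of all lists, with 1 call among them. Of 22 heat shock genes 0 were called and 21 had a negative log2 change (median -0.90); 4 had an unadjusted p under 0.05 in limma, and equal weights called 1 of them lower and library weights 0. Their sum was 428, 912 and 1258 TPM at 16-cell, against 1306, 2556 and 965 TPM at 8-cell, so the stages overlapped, 8-cell replicate 2 was the highest library and 16-cell replicate 1 the lowest. Mitochondrion-encoded transcripts summed to 1535, 1909.8 and 1703 TPM at 16-cell, against 4656, 4561 and 5639.9 TPM at 8-cell, with no overlap. Of 24 tested of 31, 1 was called lower and 0 higher (median -1.51), against 0.158% and 0.473% of all tested genes. In limma 9 of the 24 had an unadjusted p under 0.05, against 8.62% of all tested genes. Separate stages were found in 9, all lower at 16-cell, against 7.16% of all tested genes. The call was ATMG00510, with 137, 99.6 and 37.7 TPM at 16-cell and 281, 340.5 and 477 TPM at 8-cell. Without 16-cell replicate 3 a different gene of this list, ATMG01275, was the one called lower (limma adjusted p = 0.0487), and ATMG00510 was not (0.0625). Plastid-encoded transcripts summed to 1981, 1291 and 2857 TPM at 16-cell and 3229, 3273 and 3925 TPM at 8-cell, and 0 of 53 tested of 88 were called (median -0.88), with 8 at an unadjusted p under 0.05 in limma. Of these 53 plastid genes 11 had separate stages, all lower at 16-cell. Equal weights called 7 mitochondrial and 4 plastid genes lower and 0 higher, and library weights 5 and 5 lower and 0 higher. How far oligo-dT beads capture organelle transcripts is not stated, so these are shares of what was captured. With 16-cell replicate 2 omitted, the call of ATMG00510 was lost (limma adjusted p = 0.346). The call of ATMG00510 further depended on 16-cell library 3 and on 8-cell libraries 2 and 3 (adjusted p as high as 0.154 on omission).

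**Figure D5:**
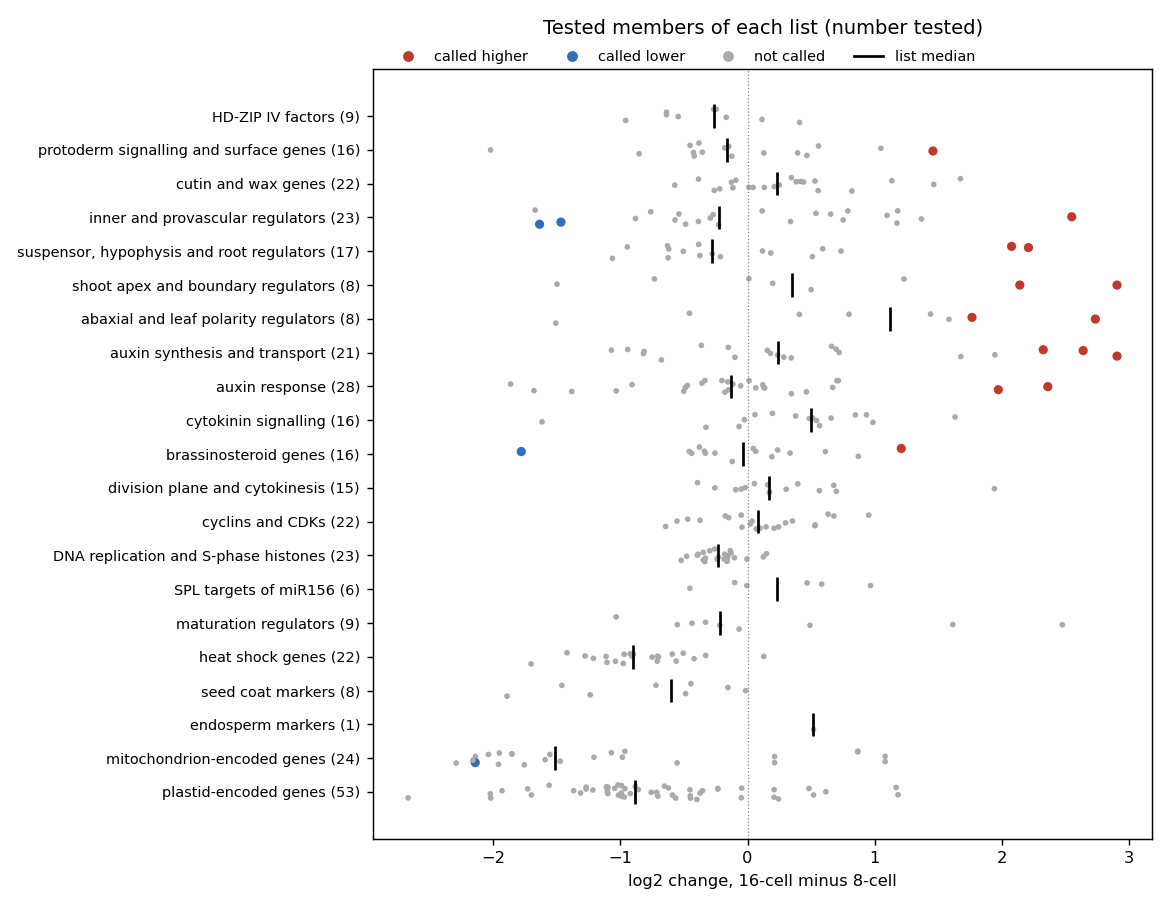
Log2 change (16-cell minus 8-cell) of every tested member of the 21 gene lists, one row per list with the number tested in brackets; red and blue points were called higher and lower, grey points were not called, and black bars are list medians. Calls are single genes within lists, and the lowest medians are those of the mitochondrion-encoded genes (-1.51), the heat shock genes (-0.90) and the plastid-encoded genes (-0.88).

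Overlapping genes limit some of these values. Of the 100 called genes 21 overlap another gene of the table in the reference annotation, among them LTPG1, AIL6, KAN1, ROPGEF3, SHI and AT1G71691. The strand setting of the counting is not given in the sources used here. Genes listed at 0 in one whole stage were few and low: 89 genes were at 0 in all 3 8-cell libraries and above 0 in all 3 16-cell libraries, and 2 of them reached 1 TPM in each. The reverse held for 74 genes, of which 4 reached 1 TPM in each 8-cell library. LURE1.2 (AT5G43510), a defensin-like gene whose family attracts pollen tubes, was the symbol-bearing gene with the highest minimum of the first kind, with 0.557, 4.70 and 7.99 TPM at 16-cell and 0 TPM in each 8-cell library.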

How the data were processed

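Levels were taken from the deposited table of TPM per gene for 18 libraries, in which each library sums to 1000000. Per the submitters' processing notes, Trim Galore 0.6.6, kallisto 0.44.0 and the TAIR10 build were used; the authors' TPM are normalized for length and library total, so read depth and its precision are unknown. Gene names came from RefSeq's annotation of assembly TAIR10.1, which matched 27445 of 27564 identifiers; since the builds differ, no coordinates are printed. Log2(TPM + 1) values were fitted with limma 3.58.1 in R 4.3.3 (1 mean per stage, 12 residual degrees of freedom, a precision weight per stage, an intensity trend) and tested two-sided for 16-cell minus 8-cell. P-values were adjusted by Benjamini-Hochberg over the 15845 genes that reached 1 TPM in 3 or more of the 6 libraries; genes under 0.05 were called. Samples were grouped by the stage in the labels. The alternatives changed the pseudocount, filter, scaling, weights, libraries fitted and replicate block, and left out each library in turn.

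The gene lists, 21 with 507 genes, and the members were chosen with earlier results of these data known. Genes were named by rule: the 12 largest rises and falls among called genes with a symbol, separate libraries and a mean of 10 TPM or more; members of 6 regulator lists; called members and the 3 most abundant uncalled members of other lists. Those outside it are marked in the text. Sequences are not used here. One gene that the naming rule covers is not reported here.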

Additional observations from a re-analysis of the deposited data

How the results depend on the processing

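The counts of calls (100, of which 75 higher and 25 lower at 16-cell) moved with the weights and the scaling. Median-ratio scaling gave 188 (134 higher, 54 lower), quantile normalization 226 (150 and 76), equal weights 318 (172 and 146), library weights 361 (224 and 137), and library weights with 16-cell replicate 3 left out 171 (126 and 45). Falls numbered 72 with only the 6 libraries in the fit at equal weights, and 11 without the 2/4-cell libraries. Leaving out 1 library at a time gave 5 to 156 calls, 5 to 124 of them higher and 0 to 32 lower; without 8-cell replicates 1, 2 and 3 the calls were 64, 49 and 56, and without 16-cell replicates 1, 2 and 3 they were 50, 5 and 156. The remaining alternatives (pseudocounts, filters, organelle genes left out, replicate block) kept each count within 1.5 times. Whether replicate numbers pair the libraries could not be decided, since deviations from a mean of 3 libraries must sum to 0. Deviations of same-numbered libraries correlated at 0.223, -0.044 and -0.0207, and those of unlike-numbered ones at -0.254 to 0.276. A fit with the replicate block called 78 higher and 35 lower. The cause of these shifts was not tested. Every leave-one-out fit held 1 library fewer than the full fit, whichever library was omitted. Depth is unknown, so the counting error of low TPM could not be set. No called gene named above reversed under any of the 19 alternatives. Some uncalled genes with small log2 changes did reverse when 1 library was left out, with ranges of -0.15 to 0.53 for ABCG11, -0.05 to 0.30 for ACR4, -0.17 to 0.03 for AGL15, -0.34 to 0.42 for BIN2, -0.26 to 0.28 for FDH, -0.24 to 0.55 for HDG11, -0.40 to 0.19 for HDG5, -0.42 to 0.23 for MCM5, -0.81 to 0.11 for NPY1, -0.13 to 0.13 for PAS2, -0.50 to 0.13 for WOX8 and -0.46 to 0.12 for WOX9. With library weights and 16-cell replicate 3 left out, HDG5 was at 0.07, MCM5 at 0.12 and NPY1 at 0.09, library weights put FDH at -0.02, and quantile normalization put AGL15 at 0.00.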

Other observations

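A stretch of chromosome 2 known to carry an insertion of mitochondrial DNA held 5 of the 25 falls, a group noticed after the values were seen. Of the 58 tested genes with identifiers from AT2G07660 to AT2G07840, 5 were called lower, where 0.158% of all tested genes were, and 0 higher, and 39 had every 16-cell library below every 8-cell library, against 7.16% of all tested genes. The reverse order held for 1 gene. Without 16-cell replicate 3, 6 were called lower, and without 16-cell replicate 2, 0 were. With all libraries the median log2 change was -1.31. AT2G07820 was at 0 in each 16-cell library and had 8.17, 9.22 and 11.6 TPM in the 8-cell libraries. AT2G07751, annotated as a subunit of NADH dehydrogenase, had 14.7, 1.07 and 11.4 TPM at 16-cell and 28.5, 45.0 and 46.2 TPM at 8-cell. AT2G07662 had 16.1, 11.5 and 18.3 TPM at 16-cell and 47.3, 71.2 and 77.5 TPM at 8-cell. Without 16-cell replicate 2 the calls of AT2G07820, AT2G07751 and AT2G07662 were lost (limma adjusted p = 0.448 to 0.618). AT2G07820 and AT2G07662 further depended on 16-cell library 1 and on 8-cell libraries 1, 2 and 3 (adjusted p as high as 0.124 for AT2G07820 and 0.19 for AT2G07662 on omission). The call of AT2G07751 further depended on 8-cell libraries 1, 2 and 3 (adjusted p as high as 0.151 on omission). Reads from such copies cannot be told apart from reads of the mitochondrial genome itself, whose summed TPM was also lower in every 16-cell library, so these levels are uncertain. The stretch also holds ordinary nuclear genes such as MCM5, a replication helicase subunit, with overlapping levels of 106, 85.6 and 42.6 TPM at 16-cell and 97.2, 56.4 and 97.6 TPM at 8-cell.

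Further genes outside the lists, collected after their values were seen, also rose. AN3 (AT5G28640), a coactivator that drives cell number in leaves, had 49.7, 68.2 and 45.9 TPM in 16-cell libraries, against 12.9, 20.5 and 16.9 TPM in 8-cell libraries (limma adjusted p = 0.00652). SOB3 (AT1G76500) and AHL20 (AT4G14465), AT-hook proteins of one family, rose 4.43- and 4.42-fold (limma adjusted p = 0.0205 and 0.0452). CHR38 (AT3G42670), a chromatin remodeler also known as CLSY1 that guides RNA-directed DNA methylation, had 4.46, 7.10 and 3.06 TPM at 16-cell and 0.437, 0.516 and 0.344 TPM at 8-cell (limma adjusted p = 0.0464). FER1 (AT5G01600), the iron store ferritin, had 171, 177 and 172 TPM at 16-cell and 76.5, 68.3 and 112 TPM at 8-cell, with nearly equal 16-cell libraries. When 16-cell replicate 2 was left out, all 5 of these calls were lost (limma adjusted p = 0.31 to 0.65). The call of SOB3 further depended on 16-cell library 1 and on 8-cell library 3 (adjusted p as high as 0.139 on omission). AHL20 and CHR38 further depended on 16-cell library 1 and on 8-cell libraries 1, 2 and 3 (adjusted p as high as 0.172 for AHL20 and 0.15 for CHR38 on omission). The call of FER1 further depended on 16-cell library 1 and on 8-cell libraries 1 and 2 (adjusted p as high as 0.147 on omission).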
